A study of Mus musculus with 3 samples.

Results

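Krt8, Krt18, Krt7, Krt19, Epcam, Hmga2, Tm4sf1, Rhox5, Pcolce2 and Wfdc2 were followed as 10 identity genes of Lewis lung carcinoma, a mouse lung tumour line, among the 55357 gene rows of a single-cell RNA-seq study of tumours in bone. They were taken by symbol, and each symbol matched 1 row. LLC1 cells (1000000 in 10 µL) had been injected into the right tibia of 8-week-old mice, and tumours were collected at day 14. Each genotype gave 1 library, pooled from the tumours of 3 mice: wild-type hosts, for which no Cre is named, DMP1-Cre Mfn2-/- hosts and DMP1-Cre Rhot1-/- hosts. DMP1-Cre acts mainly in osteocytes, so the injected tumour cells do not carry the host deletion. Mfn2 encodes a mitochondrial fusion protein and Rhot1 a protein that links mitochondria to motors on microtubules. With 1 library per genotype and no map from cells to mice, no difference between genotypes could be tested. Intervals below are exact 95% intervals of counting error only, and both knockout libraries were set against the same wild-type library.

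Simple epithelia build their intermediate filaments from pairs of keratins, a basic type II chain such as Krt8 or Krt7 with an acidic type I chain such as Krt18 or Krt19, and epithelial cells carry the adhesion molecule Epcam. Carcinoma cells that take on mesenchymal features can lose part of this set and gain vimentin and transition factors of the Snail, Zeb and Twist families. Oncofetal genes, such as the chromatin protein Hmga2, are active in the embryo, low in most adult tissues and active again in tumours. In a droplet library, RNA freed from broken cells is captured with every cell, so an abundant tumour transcript leaves some unique molecular identifiers (UMIs, each a captured mRNA molecule) in immune cells too.

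The keratin promoters are shown because the data separate Krt8 and Krt18, which were detected, from Krt7, which was nearly absent, and Pcolce2 is shown because it differed most between libraries. RefSeq windows of GRCm38.p6, from 250 bases before to 50 after the annotated start, were available for 9 of the 10 genes. Krt8 (chr15:102004293-102004592, minus strand) and Krt18 (chr15:102027966-102028265, plus strand) are neighbours on chromosome 15 with 23.7 kb between the genes. Krt7 (chr15:101412153-101412452, plus strand) lies on the same chromosome and Pcolce2 on chromosome 9 (chr9:95637378-95637677, plus strand). Capitals mark matches, on either strand, to TATAAA in Krt8 and to GGGCGG in Krt7 and Pcolce2.
Krt8: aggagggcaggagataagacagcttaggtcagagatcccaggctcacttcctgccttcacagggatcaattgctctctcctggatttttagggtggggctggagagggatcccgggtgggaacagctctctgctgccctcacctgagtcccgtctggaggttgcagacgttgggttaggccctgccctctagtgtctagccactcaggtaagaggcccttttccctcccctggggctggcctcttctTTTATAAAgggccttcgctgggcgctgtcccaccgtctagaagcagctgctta
Krt18: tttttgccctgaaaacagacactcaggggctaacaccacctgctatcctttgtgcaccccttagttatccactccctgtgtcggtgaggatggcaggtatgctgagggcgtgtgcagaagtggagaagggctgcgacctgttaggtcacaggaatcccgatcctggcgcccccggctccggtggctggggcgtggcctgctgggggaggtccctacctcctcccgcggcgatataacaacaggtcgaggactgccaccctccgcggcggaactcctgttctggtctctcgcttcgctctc
Krt7: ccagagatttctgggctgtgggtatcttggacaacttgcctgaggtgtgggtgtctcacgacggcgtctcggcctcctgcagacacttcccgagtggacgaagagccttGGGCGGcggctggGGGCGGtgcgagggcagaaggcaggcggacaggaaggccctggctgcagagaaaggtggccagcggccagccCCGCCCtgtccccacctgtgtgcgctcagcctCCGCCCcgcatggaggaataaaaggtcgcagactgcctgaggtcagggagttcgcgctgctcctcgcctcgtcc
Pcolce2: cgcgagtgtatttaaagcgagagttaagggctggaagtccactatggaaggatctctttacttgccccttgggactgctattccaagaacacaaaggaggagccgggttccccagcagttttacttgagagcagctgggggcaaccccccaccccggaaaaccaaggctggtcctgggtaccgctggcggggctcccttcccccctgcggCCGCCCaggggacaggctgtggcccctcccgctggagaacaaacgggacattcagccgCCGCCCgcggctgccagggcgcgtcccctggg
The Krt8 window held TATAAA on both strands, as overlapping matches, and no GGGCGG. The Krt7 window held 4 GGGCGG matches and Pcolce2 held 2, while the Krt18 window held neither motif. Among 32851 RefSeq windows of this length, 13.6% held TATAAA and 35.7% held GGGCGG. Another motif, TGANTCA, was found in 7.81% of windows and in none of the 9. No match says only that these letters are absent from the window. The Krt7 window had 21 CG dinucleotides, Krt18 and Pcolce2 had 17 each and Krt8 had 6, against a median of 7 over all windows.

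The libraries held 9393 barcodes in wild type, 10016 in Mfn2 and 9534 in Rhot1, with 112088653 to 118223251 UMIs each and medians of 9927 to 12024 UMIs per barcode. After filters and removal of marked doublets, 27611 cells remained, and the libraries shared 20 to 35 barcodes in pairs. Cells were clustered and classes were named without the 10 genes, so that their levels could be read in classes they had not shaped. Tumour-like clusters, named from other markers such as Ccnd1, Cav1 and Pthlh, held 5123, 6071 and 5984 cells in wild type, Mfn2 and Rhot1, or 56.9%, 63.8% and 65.8% of kept cells. Their median depth was 16506, 15215 and 16082 UMIs. All 3 libraries also held macrophage-, monocyte-, neutrophil-, T cell-, NK cell- and dendritic cell-like cells, and 4 of 24 clusters stayed unnamed. None was osteocyte-like, so the host deletions could not be checked in the cells that carry them. Levels are UMIs per 1000000 UMIs of a class (CPM), and since only transcript ends are counted, levels are compared between samples and classes, not between genes.

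Of the 10 genes, 7 were highest in tumour-like cells among the named classes of 50 or more cells in all 3 libraries: Krt8, Krt18, Hmga2, Tm4sf1, Rhox5, Pcolce2 and Wfdc2. By the same rule 20.4% of the 11483 genes at 10 CPM or more in at least 1 such class were highest there. The members were chosen with earlier results of these data known, so this share is given for scale and is no check of them. The other 3, Krt7, Krt19 and Epcam, were at or near 0 UMIs in tumour-like cells, so for them the data go against the name of the set.

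Krt8, the type II keratin of simple epithelia, stood at 589 CPM (584 to 594) in wild-type, 697 (692 to 702) in Mfn2 and 615 (610.5 to 620.2) in Rhot1 tumour-like cells. It was present in nearly every tumour-like cell, with a UMI in 94.2%, 95.4% and 94.4%. Macrophage-like cells, which should lack it, held Krt8 at 64.3, 78.6 and 76.9 CPM. Thinned to 1000 UMIs per cell, 40.6%, 46.7% and 42.4% of tumour-like cells kept a Krt8 UMI, against 6.99%, 7.62% and 7.27% of macrophage-like cells, whose median depths were 6023, 4853.5 and 5809 UMIs. Neutrophil-like cells, which also should lack it, held more, at 224, 348 and 253 CPM, with a UMI in 13.6%, 14.2% and 10.7% of thinned cells. Tumour-like cells were above both classes in each library.

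Krt18, the type I partner of Krt8, stood at 47.1 CPM (45.7 to 48.5) in wild-type, 41.5 (40.2 to 42.8) in Mfn2 and 39.8 (38.6 to 41.1) in Rhot1 tumour-like cells. A Krt18 UMI was seen in 29.6%, 29.0% and 27.96% of these cells. There were 12.5, 16.8 and 15.4 Krt8 UMIs per Krt18 UMI in wild type, Mfn2 and Rhot1, so the pair did not keep 1 ratio across libraries. This ratio of 3′ counts is no ratio of transcripts, since the capture of both ends may differ. The last 500 bases of Krt18 matched the pseudogene Gm5200 at over 90% identity, but Gm5200 had 0 UMIs in tumour-like cells. Reads shared between them cannot be told apart.

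The rest of the epithelial set was close to absent. Krt7, the other type II keratin of simple epithelia, had 7, 16 and 4 UMIs in wild-type, Mfn2 and Rhot1 tumour-like cells, or 0.0771, 0.160 and 0.0398 CPM. No cell held more than 1 of these. Krt19, a type I keratin of ducts and many carcinomas, had 0, 2 and 1 UMIs. Epcam had 0 UMIs in all 17178 tumour-like cells, which allows at most 0.0330, 0.0301 and 0.0298 CPM (3 counts per library). The few Epcam UMIs lay elsewhere: of 12 in all kept cells, 6 were in T cell-like, 4 in NK cell-like and 1 in osteoclast-like cells, and 1 was in an unnamed cluster. Krt7 had 38 UMIs in 37 of the 27611 kept cells, of which 27 were in tumour-like cells. The annotated Krt7 end resembles the ends of 40 other genes, with 90% identity or more over part of the last 500 bases, so even these UMIs are uncertain.

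The wider epithelial lists were also mostly below 10 CPM. Of 11 other keratins, 0 reached 10 CPM in tumour-like cells. Of 24 epithelial junction and fate genes, 2 did: Tjp1, a tight junction scaffold also found outside epithelia, at 64.7, 69.2 and 73.4 CPM, and Pkp3, a desmosomal plakophilin, at 13.7, 19.6 and 19.6 CPM in wild type, Mfn2 and Rhot1. Cdh1, the E-cadherin gene, had 5, 1 and 4 UMIs. Of 15 mesenchymal and transition genes, 10 reached 10 CPM in at least 1 library, among them Vim, the vimentin gene, at 3955, 3968 and 3656 CPM and S100a4 at 1288, 1030.2 and 1362 CPM. The rest, Cdh2, Snai2, Acta2, Tagln and Cdh11, did not, and Cdh2, the N-cadherin gene, had 0 UMIs in each library. Krt8 and Krt18 were therefore measured in cells that carried high vimentin and almost no E-cadherin, N-cadherin, Epcam, Krt7 or Krt19.

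**Figure D1:**
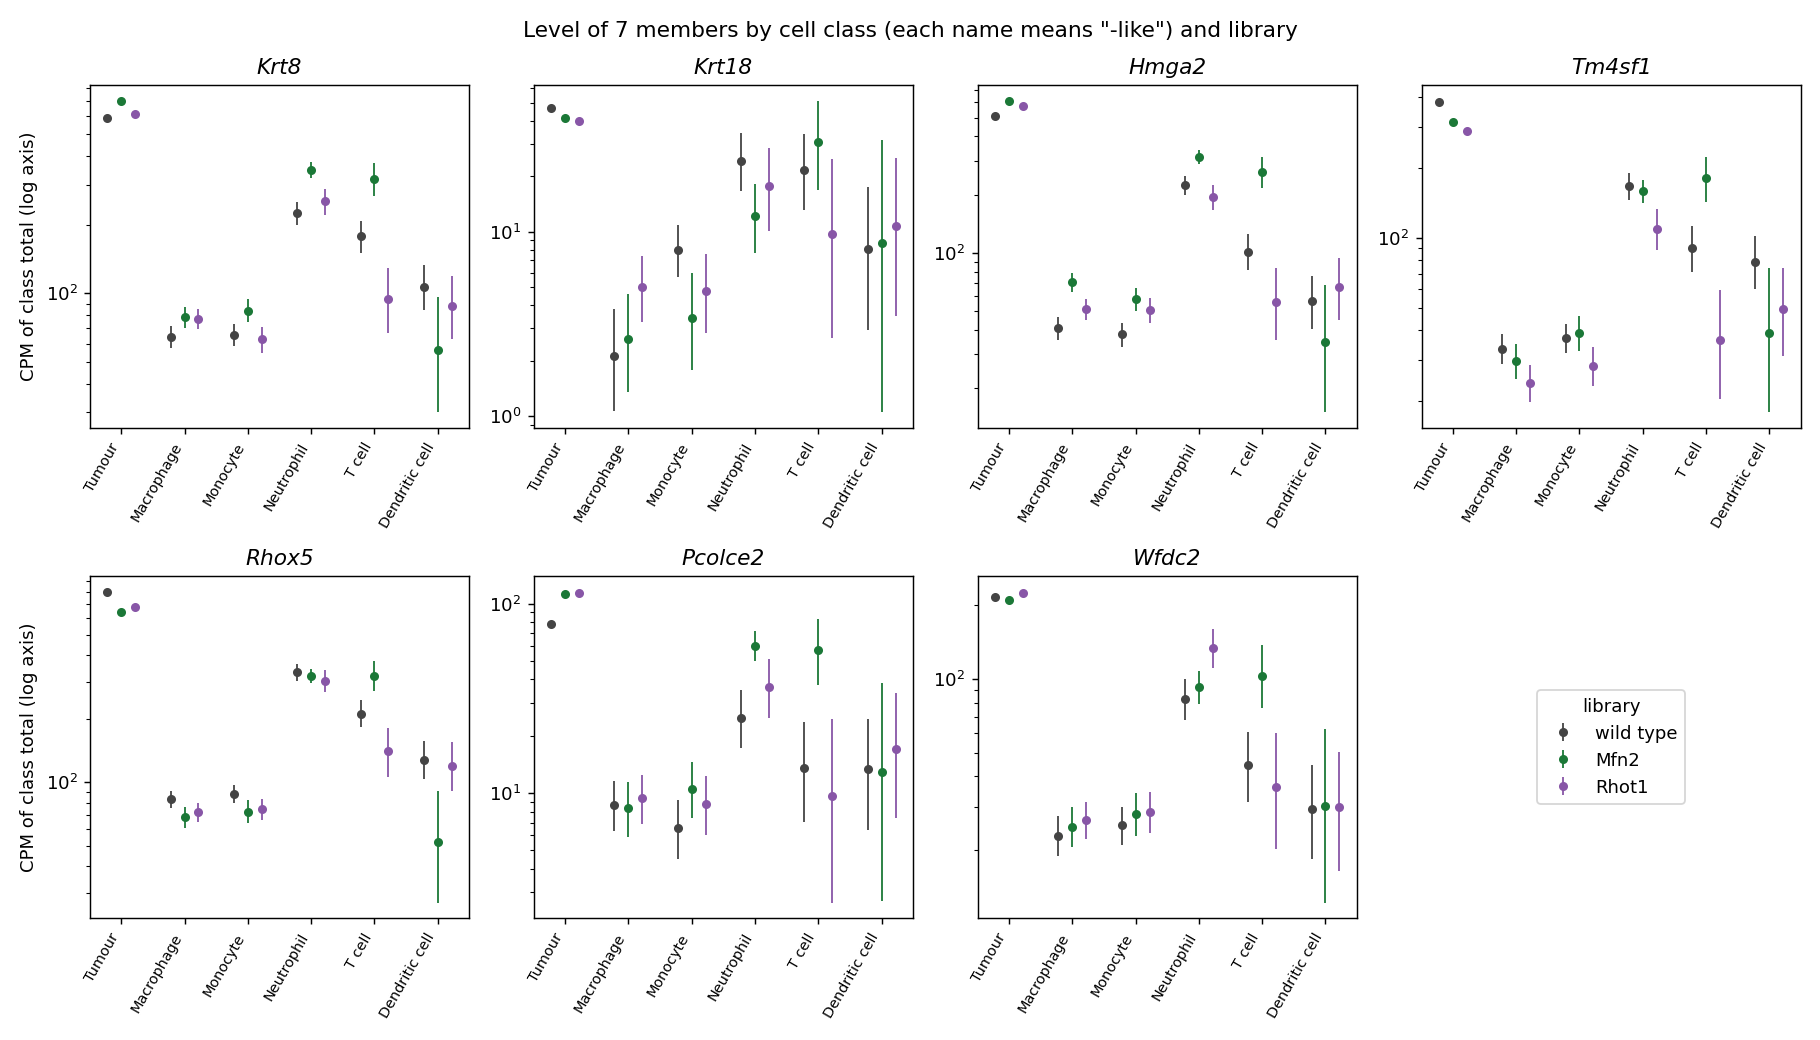
Each panel is 1 gene. Points are its CPM in a cell class of 1 library on a log axis, and lines are exact Poisson 95% intervals of counting error. Tumour-like cells are highest in every panel, macrophage- and monocyte-like cells lie well below, and neutrophil-like cells lie between.

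Hmga2 encodes an architectural chromatin protein that binds AT-rich DNA, and is a target of the let-7 miRNAs. It stood at 512 CPM (508 to 517) in wild-type, 609 (604 to 614) in Mfn2 and 575 (570.1 to 579) in Rhot1 tumour-like cells, and 91.2%, 94.1% and 93.8% of cells held a UMI. Hmga2 differed from the other members in 1 unnamed cluster of 797 shallow cells (median 2405 UMIs) rich in the nuclear transcript Malat1 (96168 CPM). There it was at 778, 1235 and 1072 CPM, above the tumour-like level in each library, while Krt8 was at 336, 319 and 348 CPM, below it. In another unnamed shallow cluster of 594 cells, with little Malat1 (2352 CPM), Hmga2 was at 160, 234 and 202 CPM, below its tumour-like level. The second cluster was also the shallower, with a median of 1497.5 UMIs. The median mitochondrial share was 8.43% in the first cluster and 0.99% in the second. The part of Malat1, depth and mitochondrial share in these levels was not tested. Of 14 HMGA-related and oncofetal partners, 8 reached 10 CPM, among them Ccnd1, a cyclin, at 307, 359 and 333 CPM and Ccnd2 at 203, 245 and 258 CPM.

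Rhox5, an X-linked homeobox gene of the testis and placenta that is often active in mouse tumour lines, stood at 797 CPM (791 to 803) in wild-type, 643 (638 to 648) in Mfn2 and 678 (673 to 683) in Rhot1 tumour-like cells. A UMI was found in 96.2%, 95.3% and 96.0% of cells. The 10 leading genes of the 594-cell cluster with little Malat1 included Rhox2h and Rhox5, and Rhox5 was at 858, 848 and 801 CPM there. Of the 12 other Rhox genes listed, 1 reached 10 CPM: Rhox2d, at 32.2, 23.2 and 20.3 CPM in wild type, Mfn2 and Rhot1. Rhox2h, which was not on that list, stood at 80.3, 59.9 and 66.4 CPM. Rhox5 and Rhox2d were each highest in the wild-type library. So was Rhox2h, but it was named for the likeness of its levels to those of Rhox5 in these data, so its order is no separate observation.

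Tm4sf1, a cell-surface protein related to tetraspanins and found on many carcinomas and on endothelium, stood at 384 CPM (380 to 388) in wild-type, 314 (311 to 318) in Mfn2 and 286 (283 to 289) in Rhot1 tumour-like cells. It was seen in 89.0%, 86.6% and 87.5% of cells. Tm4sf1 was not limited to tumour-like cells. The leading genes of an unnamed cluster of 76 cells included the endothelial genes Plvap and Cldn5 and the collagen genes Col1a1 and Col1a2. This cluster held Tm4sf1 at 379 CPM (294 to 482) in wild type, 278 (148 to 476) in Mfn2 and 704 (589 to 835) in Rhot1. Those were 98.8%, 88.6% and 246% of the tumour-like level. In the same cells Krt8 was at 17.3%, 9.22% and 19.1% of its tumour-like level. The Mfn2 value rests on 9 cells. All unnamed clusters, this one and the 797-cell and 594-cell clusters among them, were left out of the count of genes highest in tumour-like cells. Named classes with fewer than 50 cells in a library were left out there too. Of 10 tetraspanin-like and surface partners, 5 reached 10 CPM, among them Cd63 at 1272, 1349.8 and 1218 CPM and Cd9 at 519, 612 and 539.9 CPM.

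Pcolce2 encodes a secreted enhancer of the proteinase that trims procollagen ends. It stood at 78.5 CPM (76.7 to 80.4) in wild-type, 112 (110.4 to 115) in Mfn2 and 114 (112 to 116) in Rhot1 tumour-like cells, with a UMI in 53.2%, 67.3% and 67.8% of cells. Both knockout libraries lay above wild type. Wfdc2, a secreted WAP-domain protein known as HE4 in human carcinoma, stood at 215 CPM (212 to 218), 208 (206 to 211) and 224 (221 to 227), and was seen in 76.5%, 78.7% and 81.8% of cells. Its pooled levels in the 3 libraries were closer to each other than those of Pcolce2, but its ratios within clusters ran both ways. Of 15 procollagen processing genes, 9 reached 10 CPM, among them Pcolce, the paralogue of Pcolce2, at 406, 327 and 356 CPM and Serpinh1, a collagen chaperone, at 287, 244 and 233 CPM. Of 8 WAP-domain genes in the files, 2 did: Slpi, a protease inhibitor, at 83.7, 121 and 68.7 CPM, and Wfdc17 at 34.5, 53.6 and 42.0 CPM.

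**Figure D2:**
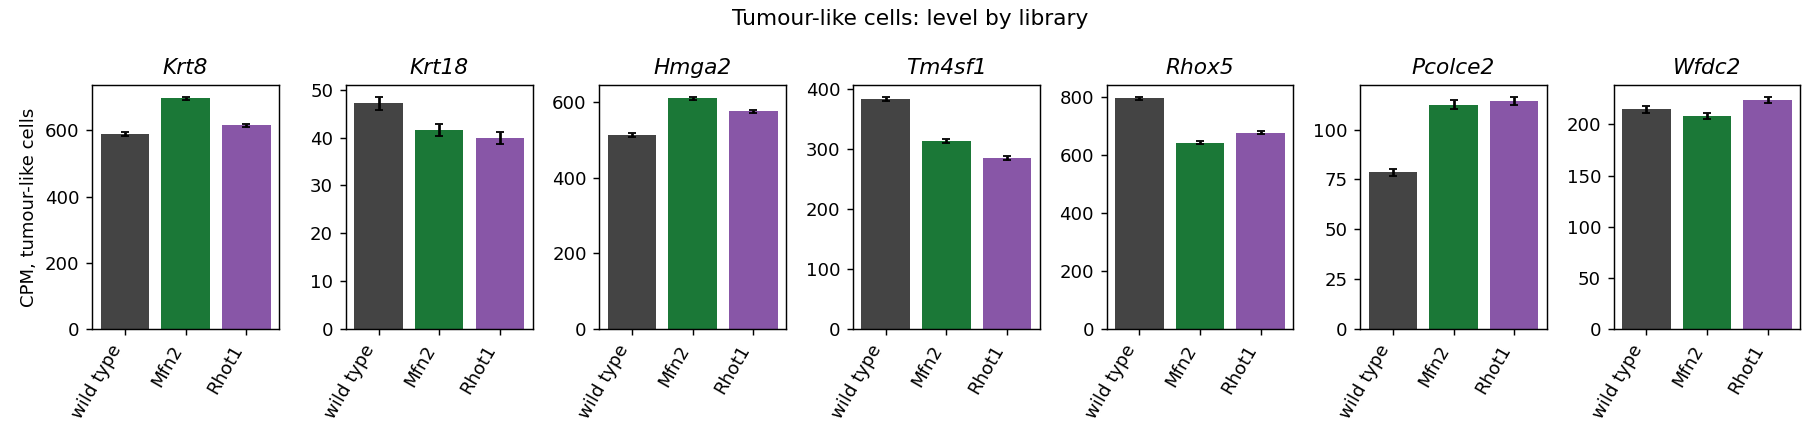
Bars are the CPM of each gene over all tumour-like cells of 1 library, and error bars are exact Poisson 95% intervals of counting error, with 1 pooled library per genotype. Pcolce2 is lowest in wild type (78.5 CPM), and Tm4sf1 (384 CPM) and Rhox5 (797 CPM) are highest there.

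A member counted as called between libraries where its log2 ratio reached 0.32 up or down, among genes at 10 CPM or more in either library. In Mfn2 over wild type 1 of 7 members was called, a higher one, against 11.4% of 8221 genes (7.21% higher and 4.2% lower). In Rhot1 over wild type 2 of 7 were called, 1 higher and 1 lower, against 13.4% of 8284 genes (9.63% higher and 3.72% lower). In Rhot1 over Mfn2 0 of 7 were called, against 3.02% of 8243 genes (1.7% higher and 1.32% lower). The median log2 ratio of the 7 was -0.04, 0.06 and -0.06 in these comparisons, and that of all genes was 0.03, 0.08 and 0.05. As a set the members therefore lay near the background of all genes.

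Pcolce2 was the member called in both knockout libraries: 112 against 78.5 CPM in Mfn2, a ratio of 1.43 (1.39 to 1.48), and 114 against 78.5 CPM in Rhot1, a ratio of 1.46 (1.41 to 1.5003). The log2 ratios were 0.52 and 0.54. The knockout libraries did not differ beyond counting error, with a ratio of Rhot1 over Mfn2 of 1.02 (0.991 to 1.04). Within the 9 tumour-like clusters Pcolce2 was above wild type in 9 in Mfn2 (ratios of 1.06 to 1.55) and in 8 in Rhot1 (0.819 to 1.65), and past the fold in 4 of 9 in each. In clusters 7, 14 and 15 the interval included 1 in both knockout libraries. Part of the difference moved with the mix of clusters: with every cluster weighted alike the log2 ratios were 0.28 and 0.26, below the fold. Clusters 5 and 9, the lowest in Pcolce2 among the deep clusters, made up 20.1% and 15.1% of wild-type tumour-like cells, 7.20% and 4.08% in Mfn2 and 10.9% and 4.31% in Rhot1. Cluster 0, the highest, made up 10.2%, 22.1% and 27.5%.

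Tm4sf1 was called lower in Rhot1, at 286 against 384 CPM, a ratio of 0.745 (0.733 to 0.757) and a log2 ratio of -0.42. In Mfn2 it was at 314 CPM, a ratio of 0.819 (0.806 to 0.831) that did not pass the fold. Tm4sf1 was below wild type in all but 2 of 9 clusters in Mfn2 and in all but 1 in Rhot1. Of the clusters below, the interval included 1 in cluster 3 of Mfn2 and in cluster 14 of Rhot1. The difference was widest in cluster 9, at 613 CPM in wild type against 374 in Mfn2 and 361 in Rhot1. The Rhot1 call held when every cluster was weighted alike (log2 ratio -0.36).

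Rhox5 was below wild type in every one of the 9 clusters in both knockout libraries, with ratios of 0.751 to 0.995 in Mfn2 and 0.776 to 0.947 in Rhot1. The interval included 1 in cluster 14 of Mfn2 (0.829 to 1.20) and in cluster 15 of Rhot1 (0.887 to 1.01). The clusters come from the same pooled libraries, so they are no replicates. Over all tumour-like cells the ratios were 0.807 (0.798 to 0.815) and 0.851 (0.842 to 0.860), neither past the fold. Krt18 had ratios of 0.881 (0.844 to 0.920) and 0.846 (0.810 to 0.883), also short of it, and its ratio of Rhot1 over Mfn2 was 0.960 (0.919 to 1.003). Krt8 leaned the other way from its partner, with 1.18 (1.17 to 1.20) in Mfn2 and 1.04 (1.03 to 1.06) in Rhot1, where median-ratio scaling put it at a log2 ratio of -0.01. Hmga2 had 1.19 (1.17 to 1.20) and 1.12 (1.11 to 1.14). Wfdc2 had 0.971 (0.952 to 0.990) and 1.04 (1.03 to 1.07), and its sign changed with the scaling and cluster weights. Within cluster 9, Wfdc2 stood at 110.4 CPM in wild type, 214 in Mfn2 and 179 in Rhot1, ratios of 1.93 (1.77 to 2.12) and 1.63 (1.48 to 1.78). In cluster 3 its ratios were 0.859 (0.816 to 0.905) and 0.853 (0.818 to 0.889).

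**Figure D3:**
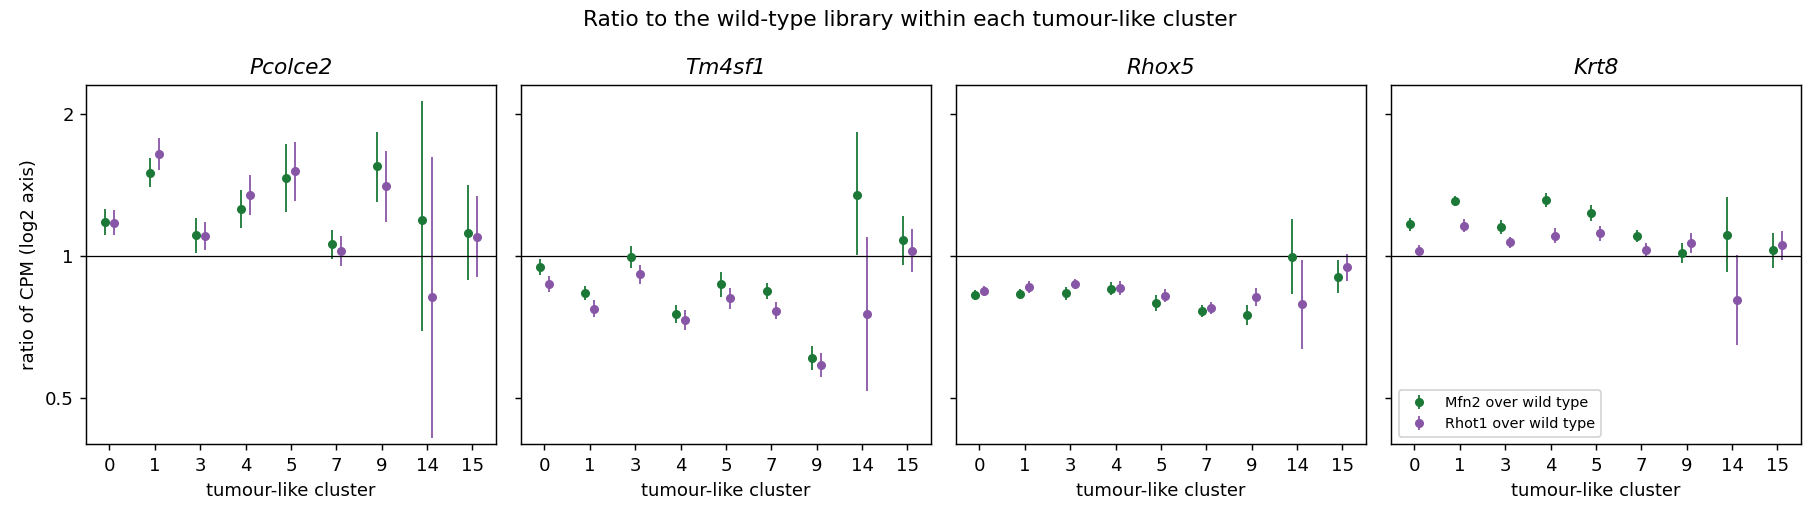
Points are the ratio of CPM in a knockout library to CPM in the wild-type library within each of 9 tumour-like clusters, on a log2 axis. Lines are exact 95% intervals of counting error. Rhox5 lies below 1 in every cluster of both libraries, Tm4sf1 is lowest in cluster 9, and Pcolce2 lies above 1 in all clusters of Mfn2 and in all but cluster 14 of Rhot1.

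The lists around the members can be read against the shares of all genes called higher (7.21% and 9.63%) and lower (4.2% and 3.72%) in Mfn2 and Rhot1. Of 10 mesenchymal and transition genes tested, 0 were higher and 4 lower in Mfn2, and 0 higher and 3 lower in Rhot1, among them Fn1, the fibronectin gene, at 118 CPM in wild type against 20.5 and 27.8 CPM (log2 ratios -2.52 and -2.08). Their median log2 ratio was -0.12 in Mfn2 and -0.13 in Rhot1. Of 2 epithelial genes tested, Pkp3 was higher in both (log2 ratio 0.52 in each). Rhox2d, the 1 listed Rhox gene at 10 CPM or more, was lower in both (-0.47 and -0.67). Of 8 oncofetal partners 0 were called in Mfn2, and in Rhot1 1 was called higher, Ccnd2 (0.34). Of 5 surface partners 0 were called in either. Of 9 procollagen genes, Adamts14, a procollagen N-proteinase, was higher in both (0.36 and 0.34), and P4ha1 and P4ha2, the prolyl hydroxylase subunits, were lower in Rhot1 (-0.37 and -0.46). Pcolce was not called. Slpi and Wfdc17 were higher in Mfn2 (0.53 and 0.63) and not called in Rhot1 (-0.28 and 0.28).

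Tumour-like cells fell into 9 clusters, made without the members. Leading genes were ranked against the other cell types, not against the other tumour-like clusters, so they do not set these clusters apart. The 10 leading genes of cluster 0 included the cell-division genes Anln and Cenpf. Cluster 1 was led by Adm, Ndrg1 and Egln3, genes known to rise in low oxygen, together with the growth factors Areg and Ereg. The list of cluster 3 began with the members Hmga2, Wfdc2 and Pcolce2 and also held Bicd1 and Syne2. Pthlh and Dkk2 were listed in cluster 4, Sema3a and Stra6 in cluster 5, and Cxcl1 and Sgk1 in cluster 7. Cluster 15 listed interferon targets such as Ifi44 and Ifit1, and cluster 9 listed Mmp3, Cxcl1, Lum and Dcn. Some genes recurred: Hmga2 was also listed in clusters 0, 1, 4, 7 and 15, and Pcolce2 in clusters 0 and 7. Bicd1 was also listed in cluster 5, Syne2 in cluster 15, Pthlh in clusters 7 and 14, and Sema3a and Stra6 in cluster 9. Cluster 14 was shallow (median 999.5 UMIs) and held the leukocyte gene Ptprc at 202 CPM, against 2.48 to 3.62 CPM in the other clusters.

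Pcolce2 varied most over these clusters. Its mean level over libraries was highest in cluster 0, at 132 CPM, and lowest in cluster 5, at 40.8 CPM, a fold of 3.24 that 7.15% of 6069 genes reached. In wild type it ran from 30.8 CPM in cluster 5 to 118 in cluster 7, in Mfn2 from 45.1 in cluster 5 to 139 in cluster 0, and in Rhot1 from 42.7 in cluster 14 to 139 in cluster 0. Cluster 9 was also low in every library, at 36.8, 56.9 and 51.6 CPM.

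The folds of Tm4sf1, Wfdc2 and Hmga2 over all 9 clusters were 2.60, 2.20 and 2.14, and each had its lowest level in the shallow cluster 14. Without that cluster they were 1.75, 1.95 and 1.40, reached by 19.9%, 13.0% and 52.9% of 5975 genes. Tm4sf1 was then highest in cluster 9 (449 CPM) and lowest in cluster 3 (257 CPM), in every library. Wfdc2 had its highest level in cluster 3 (293 CPM) and a low one in cluster 1 (150.1 CPM), where wild type, Mfn2 and Rhot1 gave 127, 157 and 165 CPM. Hmga2 ran from 476 CPM in cluster 5 to 664 CPM in cluster 15.

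Without cluster 14, Krt8 and Rhox5 varied less than most genes. Krt8 ran from 543 CPM in cluster 0 to 697 CPM in cluster 3, a fold of 1.28 that 72.6% of genes reached, and Rhox5 from 628 CPM in cluster 1 to 811 CPM in cluster 3, a fold of 1.29 that 71.5% reached. With that cluster the folds were 1.55 and 1.85. The median fold of all genes was 1.41. Krt18 ran from 30.8 CPM in cluster 15 to 51.9 CPM in cluster 3, a fold of 1.68. Both keratins and Rhox5 thus had their highest mean level in cluster 3, as did Wfdc2. In cluster 14 Krt18 was at 62.6 CPM in wild type and 6.75 CPM in Rhot1, with a UMI in 1.37% and 1.46% of cells, so its level there rests on few cells.

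**Figure D4:**
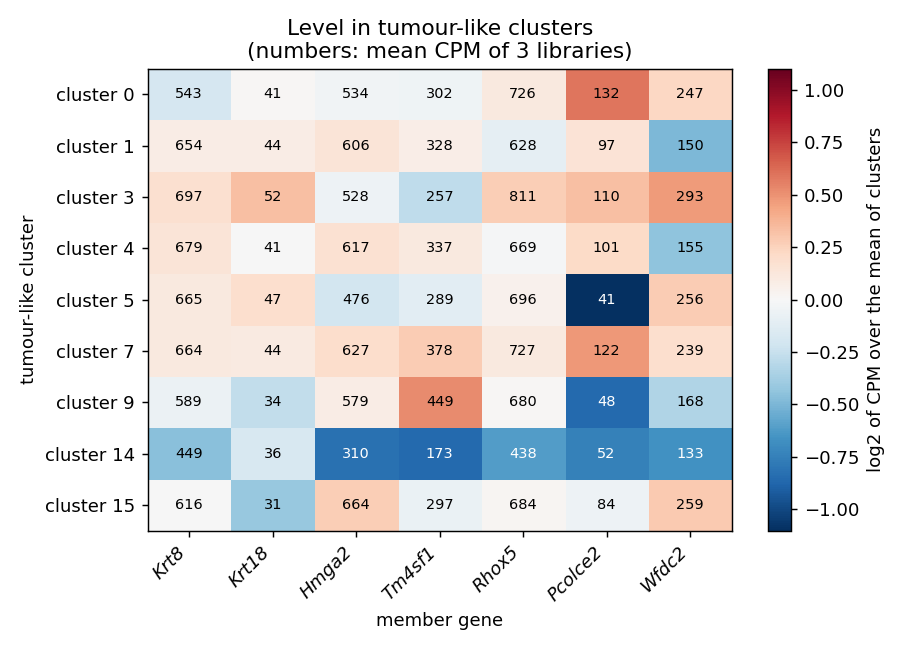
Rows are the 9 tumour-like clusters, columns the 7 detected members. Numbers are CPM averaged over the 3 libraries, and colour is the log2 of that level over the mean of the clusters. Pcolce2 spans the widest range (40.8 to 132 CPM), Tm4sf1 peaks in cluster 9, and cluster 14 is low in most columns.

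Cluster 9 carried the matrix genes Lum and Dcn, which also mark fibroblasts. Its Krt8 was at 97.4%, 83.5% and 99.5% of the level over all tumour-like cells in wild type, Mfn2 and Rhot1, its Hmga2 at 113%, 94.4% and 102%, and its Rhox5 at 99.5%, 92.7% and 95.8%. These 3 identity genes were thus near the tumour-like level in it, but the other detected members departed further from it in at least 1 library. Tm4sf1 was at 160%, 119% and 126%, and Pcolce2 at 46.8%, 50.6% and 45.1%. Krt18 was at 36.2, 32.04 and 34.2 CPM in cluster 9, against 47.1, 41.5 and 39.8 CPM over all tumour-like cells. Wfdc2 was at 110.4, 214 and 179 CPM there, against 215, 208 and 224 CPM.

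Outside the tumour-like cells, every detected member left UMIs in each immune class of 50 or more cells. Summed over the 7 members, macrophage-like cells held 9.74%, 10.8% and 10.5% of the tumour-like level in wild type, Mfn2 and Rhot1, and monocyte-like cells 10.2%, 11.2% and 10.2%. Neutrophil-like cells held 41.1%, 49.7% and 41.3%, and T cell-like cells 25.2%, 48.3% and 15.1%. Median depth was 3418.5 to 6023 UMIs in macrophage- and monocyte-like cells, 1071 to 1289 in neutrophil-like cells, and 2094, 2474 and 2154 in T cell-like cells. Within the T cell-like cells, Mfn2 had both the greatest median depth and the highest share. The part of depth in these shares was not tested.

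Counted per cell, member UMIs were few outside the tumour-like cells. The 7 members summed to a mean of 1.68, 1.51 and 1.68 UMIs in macrophage-like, 0.999, 1.07 and 1.04 in monocyte-like, 2.02, 2.69 and 2.01 in neutrophil-like and 1.98, 5.73 and 1.01 in T cell-like cells, against 46.5, 43.1 and 42.6 in tumour-like cells. The median was 0 or 1 UMI in every immune class and 38 to 41 in tumour-like cells. In neutrophil-like cells the top 5% of cells held 67.9%, 80.2% and 69.6% of these UMIs, and in T cell-like cells 62.6%, 50.4% and 41.8%. In macrophage-like cells the top 5% held 30.2%, 27.9% and 24.96%. Most member UMIs of neutrophil-like cells thus lay in few cells, and the part of unmarked doublets was not tested.

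Taken one by one, the members in macrophage-like cells were at 4.51% (Krt18) to 11.1% (Pcolce2) of their tumour-like level in wild type, 6.33% to 11.98% in Mfn2 and 8.23% to 12.6% in Rhot1. Tumour-like markers outside the set gave medians of 12.002%, 14.7% and 15.2% in the same cells, and in neutrophil-like cells 41.5%, 50.01% and 38.9%. The summed members were thus below the median of the other tumour markers in macrophage-like cells and near it in neutrophil-like cells. No member was under 5% of its tumour-like level in every immune class, and 0.0% of 7804 genes were. With a limit of 10% the counts were again 0 of 7 members and 0.0% of genes.

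**Figure D5:**
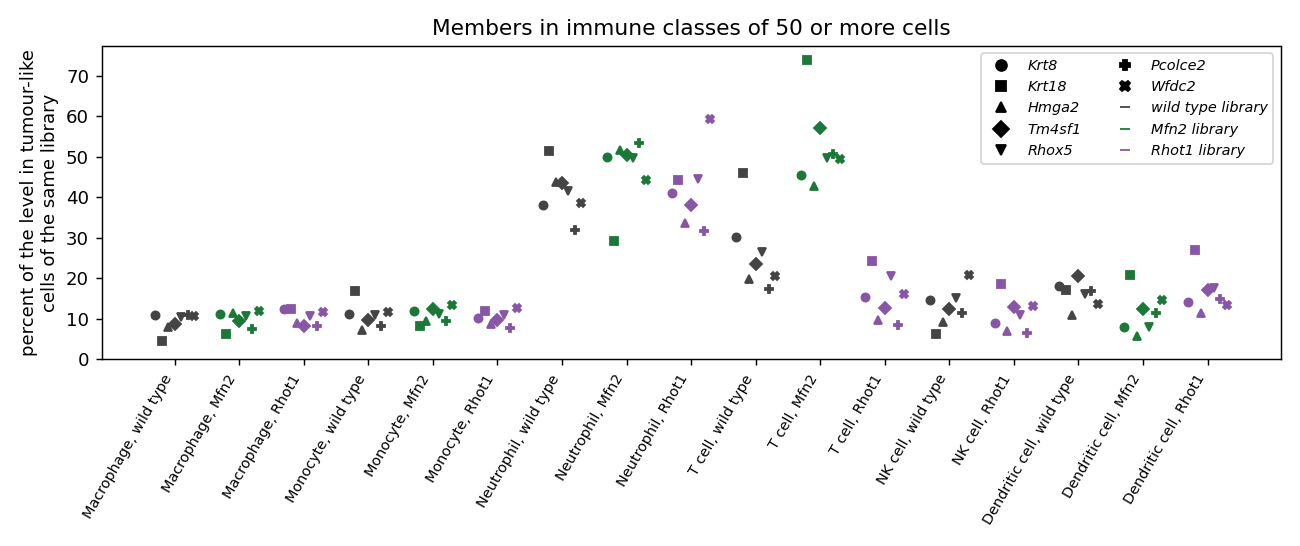
Each symbol is 1 member in an immune class of 1 library with 50 or more cells, as a percent of its CPM in tumour-like cells of that library, and colours are libraries. Macrophage- and monocyte-like cells cluster at low values, while neutrophil-like cells and the T cell-like cells of Mfn2 are higher, with summed values of 41.1% to 49.7% and 48.3%.

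Within tumour-like cells thinned to 2000 UMIs (4928, 5798 and 5710 cells), detection of 1 member said little about the next. Spearman correlations over 21 pairs ran from -0.05 to 0.11, which in counts this sparse is no finding. The keratin partners had the highest median, 0.10, and Krt18 was seen in 9.56%, 8.06% and 8.86% of cells with a Krt8 UMI and in 6.13%, 6.27% and 5.20% of cells without one. The commonest number of members per thinned cell was 3 of 7, in 33.2%, 32.1% and 32.1% of cells, and 1.93%, 1.29% and 1.86% of cells had none. The variance of UMIs over their mean, which is 1 for pure counting noise, was 1.41 to 1.45 for Krt8 and 1.06 to 1.10 for Pcolce2. For Tm4sf1 it was 1.63 in wild type, 1.27 in Mfn2 and 1.23 in Rhot1.

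Over the 27 levels of 9 clusters in 3 libraries, the genes most like each member by Pearson correlation of log2(CPM + 5) were ranked among 3047 genes. These points share libraries and cluster mix, so the values are descriptions. Pcolce2 was closest to Rrp1b (0.95), a nucleolar protein gene, and Anp32b (0.95), and both values were 0.95 without cluster 14. Rhox5 was closest to its cluster neighbour Rhox2h (0.94) and to Ndufb3 (0.91), at 0.87 and 0.88 without cluster 14. Tm4sf1 was closest to Gpc1 (0.89), a surface proteoglycan gene, and Lamb1 (0.87), a laminin chain gene. Wfdc2 was closest to Aifm1 and Aurkaip1 (0.88 each), and Hmga2 to Nvl (0.87). Krt18 was closest to Ppp2r1a (0.85) and Tmem70 (0.82), and Krt8 to Ank3 and Cdc42ep5 (0.79 each). Without cluster 14 Krt8 had 0.51 and 0.56 with these genes, and Krt18 had 0.79 with Ppp2r1a and 0.46 with Tmem70. Tm4sf1 then had 0.80 with Gpc1 and 0.68 with Lamb1, and Hmga2 had 0.77 with Nvl. Wfdc2 had 0.93 with Aifm1 and 0.85 with Aurkaip1.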

How the data were processed

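Single-cell 3′ RNA-seq (10x Genomics) was made from dissociated tumours sorted for live cells. Per the file headers, Cell Ranger 7.0.0 wrote the deposited matrices of UMI counts per gene and barcode, and the submitters' processing notes give build mm10. No normalization had been applied to the counts by the authors. Barcodes needed 300 genes and a mitochondrial share of UMIs no higher than 15%, and doublets marked by Scrublet (2.82% to 3.57% of cells) were removed. With the 10 genes left out, 2000 variable genes, 30 components and 15 neighbours gave Leiden clusters at resolution 1 (scanpy 1.11.5, leidenalg 0.10.2), named from marker lists that exclude the 10 genes. UMIs were summed per class, cluster and library and divided by the class total (CPM). Intervals are exact Poisson (levels), Clopper-Pearson (shares) and conditional binomial (ratios), from scipy 1.17.1, and cover counting error only. The ratio calls were tested on simulated data. Genes named beside the members are, for each member, the 2 with the most similar levels and, for each list, at most the 2 highest and 2 lowest ratios and the 2 highest levels. A gene that this rule names is not reported here. Cdh1, Krt20, the mesenchymal and transition genes below 10 CPM and genes leading a cluster were named after their values were seen. The members and lists were chosen with earlier results of these data known. Annotation came from GENCODE M21, in which 94.1% of identifiers were found. The alternatives were other clusterings, cell filters, scalings, weights of clusters, thinning and filters on low values.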

Additional observations from a re-analysis of the deposited data

How the results depend on the processing

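Log2 ratios that were not called changed sign for Wfdc2 in 3 alternatives in each knockout library and for Krt8 in Rhot1 in 1. Members called in Mfn2 over wild type numbered 1, in Rhot1 over wild type 2 and in Rhot1 over Mfn2 0 in the main analysis. With every tumour-like cluster weighted alike, 0 were called in Mfn2, and the 2 called in Rhot1 were Tm4sf1 and Krt18 (log2 ratio -0.39), in place of Pcolce2. Leaving out the shallow cluster as well, an alternative chosen after seeing the data, gave 0 and 1, with Krt18 at -0.19. Without a filter on low values, 2 were called in Mfn2 over wild type, 3 in Rhot1 over wild type and 2 in Rhot1 over Mfn2, since this adds genes of a few UMIs. Pcolce2 had log2 ratios of 0.28 to 0.61 in Mfn2 and 0.26 to 0.65 in Rhot1 over 16 alternatives, past the fold in 14 of each, and Tm4sf1 in Rhot1 had -0.50 to -0.36, past it in all 16. Adding the members to clustering and naming gave a tumour-like class that shared 17021 cells with the main one, 99.1% of the main and 99.7% of the other. Clustering each library on its own put the tumour-like share at 56.2%, 49.5% and 51.6%, so that wild type was highest in place of lowest. Median-ratio scaling shifted log2 ratios by 0.01 in Mfn2 and 0.07 in Rhot1. The counts of 7 members highest in tumour-like cells and 0 under the immune limit held in the alternatives of clustering, class, cell filter, doublets and the top cell, where they were recomputed. No paired analysis was possible because each genotype is 1 pooled library, and for the same reason no replicate could be left out. Differences between libraries cannot be told apart from differences between pools, dissociations or runs.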

Other observations

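Krt20, a type I keratin of gut and bladder epithelium on the list of other keratins, was under 10 CPM in all tumour-like cells and was picked after its values were seen. It had 122, 836 and 191 UMIs in wild type, Mfn2 and Rhot1, or 1.34 CPM (1.12 to 1.60), 8.38 (7.82 to 8.97) and 1.90 (1.64 to 2.19). A UMI was found in 1.54%, 7.0005% and 2.09% of tumour-like cells. The highest cell held 5, 9 and 6 UMIs, so the Mfn2 level does not rest on 1 cell. In cluster 1, led by Adm and Ndrg1, it was at 2.96 CPM in wild type and 14.4 CPM in Mfn2. With 1 pooled library per genotype this difference has no replicate check.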
